A study of Mus musculus with 15 samples.

Results

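The BCL2 family decides whether a cell opens its mitochondria and dies, and 10 of its genes were followed here through oocytes of mouse follicles grown in vivo and in vitro. The 10 members (Bcl2, Bcl2l1, Mcl1, Bcl2l10, Bax, Bak1, Bcl2l11, Bid, Pmaip1 and Bbc3) were taken by symbol from the 55401 Ensembl gene identifiers of the count tables. Each library was a pool of 6 oocytes of Kunming mice, an outbred strain, amplified with SMART-Seq2, a protocol that copies polyadenylated RNA by PCR without molecular identifiers. The 5 groups of 3 libraries were germinal vesicle oocytes grown in vivo and taken by puncture of antral follicles (IVV), oocytes of preantral follicles cultured for 10 days in medium alone (IVG) or with neurotrophin-4 (IVG-NT), and oocytes collected on day 6 of the same cultures without it (IVG day 6) or with it (IVG-NT day 6). All in vitro groups share the follicle culture, and the series gives the mice as 12 to 14 days old, an age that the study's methods state for the follicle donors. Pooling hides differences between oocytes, and in a pool fewer oocytes of one state and less RNA per oocyte cannot be told apart.

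BCL2 family proteins meet on the outer mitochondrial membrane. Anti-apoptotic members such as BCL2, BCL-XL (from Bcl2l1) and MCL1 hold the effectors BAX and BAK in check, and the BH3-only proteins BIM (from Bcl2l11), BID, NOXA (from Pmaip1) and PUMA (from Bbc3) bind either side by a short helix, the BH3 motif, to release that check. In the ovary, BAX, PUMA and NOXA are known for their part in the loss of oocytes, and Bcl2l10, also called Diva or Boo, is a divergent member known for its high expression in oocytes, for which both death-promoting and protective activities have been described.

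The BH3 motif is the feature by which the family members bind each other, so its coding sequence is shown for 8 of the 9 members in which a script found it. Pmaip1 had 2 matches to the glycine form, whose sequence is not printed here. The search took, in the coding frame of 1 transcript per gene (GENCODE vM21 on GRCm38, coding strand), a leucine codon, any 3 codons, then glycine and aspartate codons, and for Bbc3 the same with alanine in place of glycine. In each 39-base window the capitals mark these 18 core bases.
Bcl2, exon 1, chr1:106712575-106712613, minus strand: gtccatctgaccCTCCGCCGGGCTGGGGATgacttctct
Bcl2l1, exon 2, chr2:152829697-152829735, minus strand: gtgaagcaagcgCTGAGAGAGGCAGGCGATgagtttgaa
Mcl1, exon 1, chr3:95659424-95659462, plus strand: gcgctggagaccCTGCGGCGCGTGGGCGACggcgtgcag
Bax, exon 3, chr7:45465997-45466035, minus strand: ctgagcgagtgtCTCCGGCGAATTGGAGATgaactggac
Bak1, exon 4, chr17:27022531-27022569, minus strand: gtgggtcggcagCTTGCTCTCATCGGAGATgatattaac
Bcl2l11, exon 3, chr2:128147138-128147176, plus strand: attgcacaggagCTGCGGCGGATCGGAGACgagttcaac
Bid, exon 4, chr6:120897289-120897327, minus strand: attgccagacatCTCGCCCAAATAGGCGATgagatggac
Bbc3, exon 3, chr7:16313761-16313799, plus strand: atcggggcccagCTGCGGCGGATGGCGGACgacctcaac
Of all pairs of these 8 members, the core bases of Bcl2l11 and Bbc3 were the most alike (15 of 18 positions) and those of Bcl2l1 and Bak1 the least (7 of 18). Part of this identity is fixed by the search, which required the leucine, glycine or alanine, and aspartate codons. Neither pattern is rare: the glycine form was found in 13.2% and the alanine form in 13.3% of 21816 protein-coding genes. Neither was found in the 573 coding bases of Bcl2l10, which says only that these codons are not in that frame. Bcl2l10 is a 2-exon gene on chromosome 9 (chr9:75347758-75351632, plus strand), and its coding sequence, shown because this transcript exceeds all other members in every library, starts in its first exon at chr9:75347903-75347962 (the start codon in capitals).
Bcl2l10, first 60 coding bases: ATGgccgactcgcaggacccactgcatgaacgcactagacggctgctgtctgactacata

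The shallowest libraries were replicates 1 and 2 of IVG-NT day 6, with 5.95 and 7.13 M counts, and the 13 others held 19.0 to 55.6 M. Between 12.5% and 37.9% of the counts fell on 1 rRNA gene of the annotation, CT010467.1, in 9 libraries (IVV replicate 3 and the first pair of replicates of every in vitro group), called rRNA-rich below. The 6 rRNA-poor libraries had 0.187% to 0.714% of their counts there. All 12 oocyte markers examined, such as Gdf9 and Zp3, had counts in every library. Of 10 granulosa cell markers, 2 to 10 had counts per library, and their summed CPM (counts scaled to the library total) was lowest in IVG-NT day 6 (11.4 to 96.3) and IVG day 6 (58.5 to 120). It was 115 to 212 for IVG-NT, 79.9 to 343 for IVG and 168 to 279 for IVV, while the oocyte markers summed to at least 10254. Of 6 theca and stroma markers 1 to 6 had counts per library. Their summed CPM was 13.7 to 18.4 in IVV and at most 5.02 in IVG-NT, while in IVG it was 33.8 in replicate 3 and at most 0.509 in the others. On day 6 it ran from 0.279 to 9.88 without and from 0.636 to 26.4 with neurotrophin-4. The 4 macrophage markers summed to 45.7 CPM in IVG-NT day 6 replicate 1, where 1 of them had counts, and to at most 5.71 in the other 14 libraries. Markers of other cells thus differed between the groups compared below, and their part in the members' values was not tested.

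Bcl2l10 dominated the family. Per length, in FPKM (CPM per kilobase of exon, computed here from the counts), it reached 4071 ± 1562 (mean ± SD, n = 3) in IVV. The day 10 means were 2323 ± 1620 for IVG and 3078 ± 2277 for IVG-NT, and the day 6 means were 2512 ± 1724 without and 2861 ± 2426 with neurotrophin-4. It was between the 3rd and the 13th most abundant of the 10975 to 22921 genes with a count in a library, and held 96.3% to 99.3% of the summed FPKM of the 10 members. Next came Bcl2l1, at 22.3 ± 7.42 FPKM in IVV and 35.6 ± 6.32 in IVG. In every group all 3 Bcl2l10 values lay above all Bcl2l1 values, by a ratio of 33.9 to 292 within a library.

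Below those genes the order of the FPKM depended on the group. In IVV, IVG and IVG-NT, Bax came next (group means 8.77, 10.2 and 8.98 FPKM) and then Bcl2l11 (1.85, 2.78 and 2.45 FPKM), with no overlap between the libraries' ranges of Bcl2l1, Bax and Bcl2l11. In IVG day 6, Mcl1 (7.29 FPKM) stood above Bax (4.99 FPKM), with overlapping ranges. In IVG-NT day 6 the ranges of Bcl2l1, Bax, Mcl1, Bid and Bcl2l11 overlapped each with the next, and Bax ran from 0 to 24.7 and Bid from 0 to 4.26 FPKM in those 3 libraries. Bak1, Pmaip1, Bcl2 and Bbc3 reached at most 1.33 FPKM in any library. Of the anti-apoptotic genes, Bcl2, after which the family is named, was the one near the limit of detection.

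**Figure D1:**
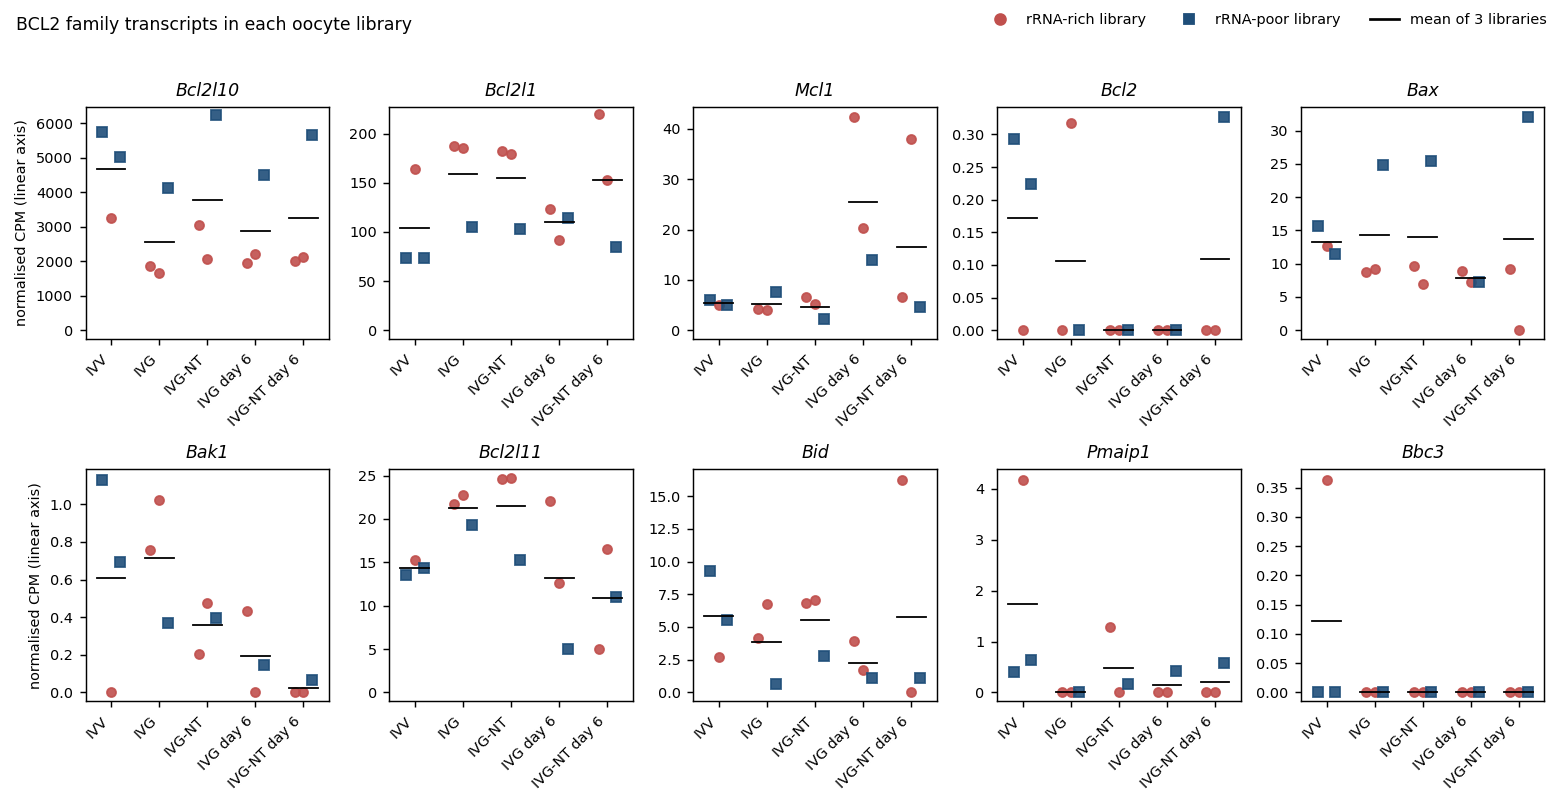
Normalised CPM (linear axes, 1 panel a gene) of the 10 members in the 15 libraries; each point is 1 library, circles are rRNA-rich and squares rRNA-poor libraries, and bars are the means of 3. For Bcl2l10 all 6 squares (4105 to 6242) lie above all 9 circles (1669 to 3237), whichever the group.

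To compare libraries, counts were scaled by edgeR's TMM factors to normalised CPM, a level per gene that is not corrected for length. Bcl2l10 stood at 5730, 3237 and 5027 normalised CPM in IVV replicates 2, 3 and 4, at 1867, 1669 and 4105 in IVG replicates 1 to 3, and at 3047, 2049 and 6242 in IVG-NT. On day 6 it was at 1951, 2208 and 4492 in IVG day 6 and at 2006, 2110 and 5667 in IVG-NT day 6. The rRNA-poor library of every in vitro group was its highest, and the groups overlapped throughout. With the group means allowed for, Bcl2l10 was lower in rRNA-rich than in rRNA-poor libraries by a log2 fold change of -1.16 (SE 0.14, edgeR quasi-likelihood test over all genes, adjusted p = 6.2e-05), and all 9 rRNA-rich libraries lay below all 6 others. Of all genes tested, 23.7% had an adjusted p under 0.05 and 35.1% were DEGs (defined below) between these kinds of library, and in 13.2% the kinds did not overlap.

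Bcl2l1, which gives the anti-apoptotic BCL-XL, ran the other way. It was at 73.9, 164 and 73.4 normalised CPM in IVV, 188, 185 and 105 in IVG, 182, 180 and 103 in IVG-NT, 123, 91.4 and 114 in IVG day 6, and 220, 153 and 84.4 in IVG-NT day 6. In 4 of the 5 groups each rRNA-rich library was above each rRNA-poor one, the exception being IVG day 6, where replicate 3 (rRNA-poor) lay between the others. The difference between the kinds was 0.75 (SE 0.26, log2, edgeR adjusted p = 0.046), under the log2 limit of 1 used for a DEG. These were the only members of the 9 tested with an adjusted p under 0.05 for the kind of library; the fitted values of the other 7 ran from -1.96 for Bcl2 to 1.57 for Bid.

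**Figure D2:**
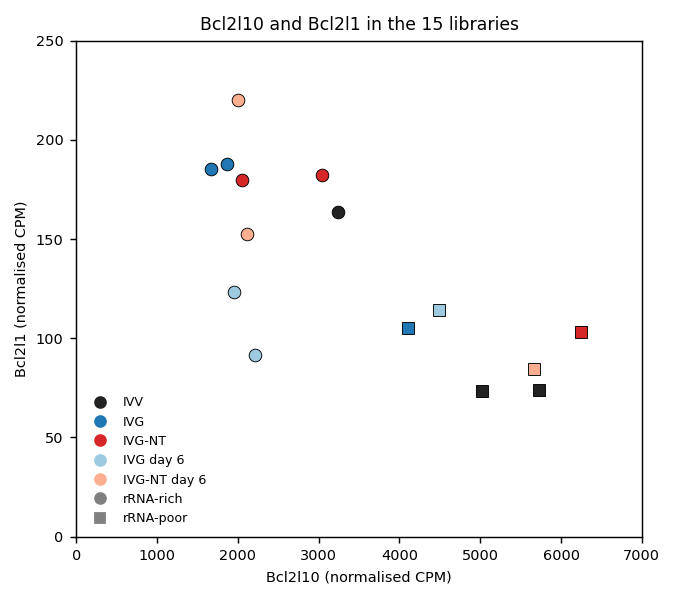
Normalised CPM of Bcl2l1 (vertical, linear) against Bcl2l10 (horizontal, linear) in the 15 libraries, coloured by group, with circles for rRNA-rich and squares for rRNA-poor libraries. Squares hold Bcl2l10 from 4105 to 6242 with Bcl2l1 from 73.4 to 114, and circles hold Bcl2l10 from 1669 to 3237 with Bcl2l1 from 91.4 to 220.

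Mcl1, a short-lived anti-apoptotic protein whose loss is known to deplete mouse oocytes, was highest on day 6 without neurotrophin-4. Its normalised CPM was 42.4, 20.3 and 14.0 in IVG day 6, against 4.27, 4.06 and 7.55 in IVG, so that every day 6 library lay above every day 10 library. In IVG-NT it was 6.62, 5.14 and 2.29 and in IVV 6.07, 5.03 and 5.08. In IVG-NT day 6 it was 6.69, 37.9 and 4.71, where the single high value belonged to replicate 2, a library of 7.13 M counts. Bcl2 itself had counts in 4 libraries only, with 14 and 11 in IVV replicates 2 and 4, 14 in IVG replicate 2 and 20 in IVG-NT day 6 replicate 3. In the other 11 libraries it was at 0, which allows up to 3 counts, or 0.054 to 0.504 CPM depending on the depth. Intervals of this kind cover counting error only.

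The effector genes differed from each other in level. Bax was at 15.7, 12.7 and 11.4 normalised CPM in IVV, 8.79, 9.19 and 24.9 in IVG, 9.69, 6.90 and 25.5 in IVG-NT, 8.96, 7.26 and 7.31 in IVG day 6, and 9.22, 0 and 32.0 in IVG-NT day 6. The highest Bax of IVG, IVG-NT and IVG-NT day 6 was the rRNA-poor replicate 3, while IVG day 6 replicate 3, of the same kind, was not raised. Bak1, which acts beside Bax, had counts in 11 libraries and reached at most 1.13 normalised CPM (IVV replicate 2). Its values were 1.13, 0 and 0.691 in IVV, 0.758, 1.02 and 0.370 in IVG, and 0.206, 0.474 and 0.397 in IVG-NT. On day 6 they were 0.432, 0 and 0.147 without neurotrophin-4 and 0, 0 and 0.065 with it. Per length, Bax exceeded Bak1 by 13.7 to 749 times in the libraries where Bak1 had counts. Bak1 shares 614 exon bases with Ggnbp1 on the other strand, and since this protocol keeps no strand its counts are uncertain.

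Among the BH3-only genes, Bcl2l11 was the one detected in all 15 libraries. BIM, its product, binds every anti-apoptotic member. It was at 13.5, 15.3 and 14.3 normalised CPM in IVV and at 21.8, 22.7 and 19.3 in IVG, with all IVG libraries above all IVV libraries. In IVG-NT it was 24.6, 24.8 and 15.2, in IVG day 6 22.1, 12.6 and 5.0, and in IVG-NT day 6 5.06, 16.5 and 11. Bid, which death receptor signalling activates by cleavage, was at 9.28, 2.67 and 5.55 in IVV, 4.16, 6.76 and 0.651 in IVG, 6.83, 7.07 and 2.81 in IVG-NT, 3.92, 1.75 and 1.09 in IVG day 6, and 16.3, 0 and 1.08 in IVG-NT day 6. The groups overlapped, and 628 of its exon bases lie opposite Bcl2l13, a gene with 75 to 6519 counts per library, so Bid counts may hold reads of that gene.

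Pmaip1 and Bbc3, targets of the p53 family, were near the limit of detection too. Pmaip1 had counts in all 3 IVV libraries (19, 69 and 31, or 0.398, 4.18 and 0.630 normalised CPM) and in none of the 3 IVG libraries. In IVG-NT it had 44, 0 and 7 counts, and on day 6 only replicate 3 of each group had any (28 counts without and 36 with neurotrophin-4). Bbc3 had 6 counts in IVV replicate 3 and 0 in the other 14 libraries. It was the 1 member left out by the filter on low counts, and the 9 others were tested.

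Within the 9 members other than Bcl2l10, Bcl2l1 took the largest share of the summed FPKM in 14 of the 15 libraries, from 49.1% to 78.8%. The exception was IVG-NT day 6 replicate 3, where Bax took 48.3% and Bcl2l1 43.8%. Bcl2l1, Mcl1 and Bcl2 together made up 74.9% to 95.6% in rRNA-rich and 47.2% to 83.4% in rRNA-poor libraries. Bax and Bak1 made up 0% to 16.3% in the former and 13.5% to 48.3% in the latter. The ratio of Bcl2l1 to Bax FPKM was 4.33 to 8.95 in the 8 rRNA-rich libraries with Bax counts and 0.907 to 5.38 in the 6 rRNA-poor ones. In IVG and IVG-NT these shares differed between replicate 3 and the other replicates, and the rRNA-rich libraries of both groups lay close together. BH3-only genes held 3.10% to 13.5%.

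**Figure D3:**
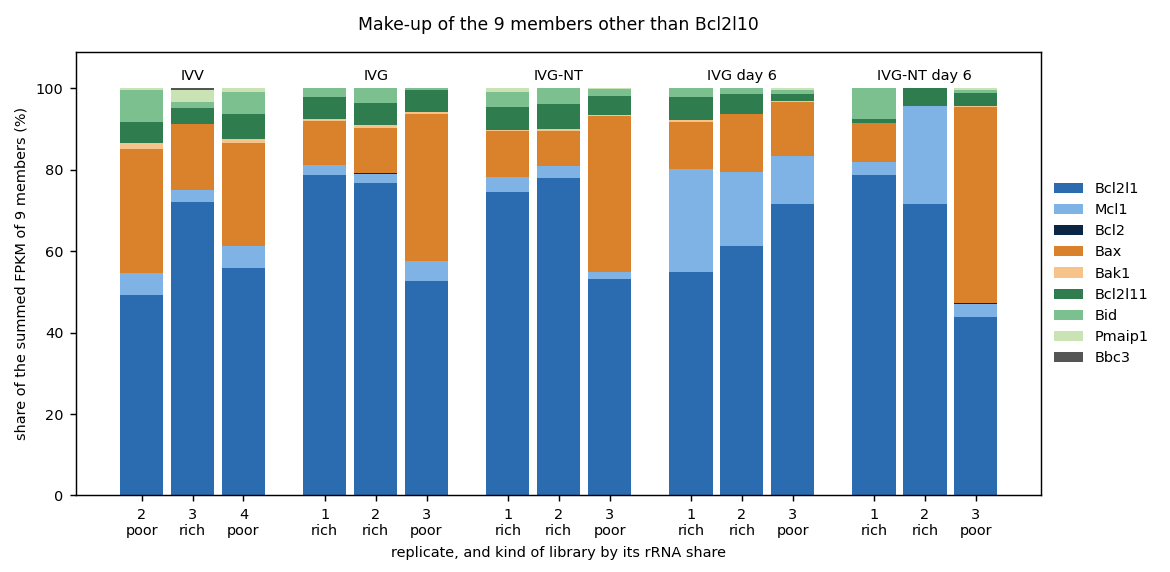
Share (%) of each of 9 members in their summed FPKM, Bcl2l10 left out, in each library, by group, replicate and kind of library. The orange Bax section reaches 36.1%, 38.3% and 48.3% in the rRNA-poor libraries of IVG, IVG-NT and IVG-NT day 6. It is 30.4% and 25.3% in those of IVV and 13.3% in that of IVG day 6. In the rRNA-rich libraries it is 8.70% to 11.5% for IVG and IVG-NT and 0% to 16.3% over all groups.

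Oocytes grown in vitro to day 10 were first compared with those grown in vivo. A DEG, by the limits the study used, had to pass 0.05 in edgeR's quasi-likelihood test before adjustment and differ by over 1 on the log2 scale. Between IVG and IVV 1 of the 9 members tested was a DEG, against 2.76% of the 21009 genes tested. This was Pmaip1, with counts in 3 of 3 IVV and 0 of 3 IVG libraries, at least 47.7-fold lower in IVG by counting error alone (floor of 3 counts over the group). Bounds of this kind, here and below, leave out the spread between libraries and set no lower limit on a change in the oocytes. Pmaip1 had 69 of its IVV counts in replicate 3. Its adjusted p by edgeR was 1, and it was not a DEG in rRNA-rich libraries only, where IVV is 1 library and the fitted log2 value was -9.64 against -8.98. Next in the test's order was Bcl2l10, with a log2 fold change of -0.87 (SE 0.60, edgeR adjusted p = 1), short of a DEG. A fit that allowed for the kind of library gave -0.58 (SE 0.22, edgeR adjusted p = 1). Without IVG replicate 3 the Bcl2l10 difference was -1.40 and a DEG, where 1065 of 23374 genes were DEGs. That leaves only rRNA-rich libraries in IVG, while IVV keeps the rRNA-poor replicates 2 and 4. The part of the kind of library in the value of -1.40 was not tested. The groups did not overlap for 2 members, Pmaip1 (lower in IVG) and Bcl2l11 (higher in IVG, 0.57, SE 0.88), against 11.9% of all genes. Exact permutation tests of single members reached p = 0.1 for both, the smallest that 3 libraries against 3 allow. The median over the 9 members was -0.03 and that over all genes -0.20.

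With neurotrophin-4 in the culture, 0 of the 9 members were DEGs against IVV, against 3.29% of all genes, and 0 passed edgeR's test at 0.05 before adjustment. DESeq2's test likewise called none. The members nearest to the limit were Bcl2 and Bcl2l1. Bcl2 had 25 counts in IVV and 0 in IVG-NT, at least 7.81-fold lower (edgeR adjusted p = 1). Bcl2l1 was 0.58 higher in IVG-NT on the log2 scale (SE 0.61, edgeR adjusted p = 1). Fitted values of the other members ran from -1.82 for Pmaip1 to 0.58 for Bcl2l11, and no member separated the groups, against 11.6% of all genes. The median was -0.20 over the members and -0.19 over all genes.

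The direct question of neurotrophin-4 on day 10 compares IVG-NT with IVG. Pmaip1 was the 1 DEG of the 9 members, against 1.24% of all genes. With 51 counts in IVG-NT, 44 of them in replicate 1, and 0 in IVG, it was at least 21.8-fold higher (edgeR adjusted p = 1). The groups overlapped at 0, since IVG-NT replicate 2 had no count either. It was no DEG without IVG-NT replicate 1, where its fitted log2 value was 4.67 against 7.15 with all libraries. Nor was it one without any 1 of the IVG libraries (7.09 to 7.13) or in the rRNA-rich libraries (7.0), though the fitted value was about as large there. In a fit of these groups alone it did not pass the filter on low counts. Bcl2 was next, with 0 counts in IVG-NT and 14 in a single IVG library, short of a DEG. For Bcl2l10 the difference was 0.57 (SE 0.60), and 0.55 (SE 0.21, edgeR adjusted p = 1) when the kind of library was allowed for. In the rRNA-rich libraries Bcl2l10 was at 3047 and 2049 normalised CPM in IVG-NT and at 1867 and 1669 in IVG. The rRNA-poor ones had 6242 and 4105. No share of all genes with this order is given, so nothing is read from it. Bcl2l1, Mcl1, Bax and Bcl2l11 had fitted differences between -0.18 and 0.02 with SEs of 0.61 to 1.31, so changes of a like size to the SE cannot be seen here. The median was -0.03 over the members and 0.01 over all genes, and 0 members separated the groups, against 3.59% of all genes.

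On day 6, IVG-NT day 6 against IVG day 6 gave 0 DEGs among the members, against 11.6% of all genes, and 0 members passing edgeR's test at 0.05 before adjustment. DESeq2's test called no member either. Bcl2, with 20 counts in 1 IVG-NT day 6 library against 0 in IVG day 6, came nearest to the limit (edgeR adjusted p = 0.458), and Bak1 was next (4 against 22 counts, log2 fold change -2.42, SE 2.07, edgeR adjusted p = 0.679). The other 7 ran from -0.64 for Mcl1 to 1.35 for Bid. This comparison rests on shallow libraries. Without IVG-NT day 6 replicate 2, Mcl1 was a DEG at -2.13 (SE 0.93, edgeR adjusted p = 0.474), where 2355 of 23264 genes were DEGs. Without both shallow libraries the rRNA-poor replicate 3 is alone in its group and the spread comes from the other groups. The fitted log2 values there were -2.34 for Mcl1 and 2.11 for Bax. The median was 0.47 over the members and -0.27 over all genes, and no member separated the groups, against 8.45% of all genes.

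Among the members, the comparison of day 10 with day 6 was led by Mcl1. From IVG day 6 to IVG its mean fell from 25.5 ± 14.9 to 5.29 ± 1.96 normalised CPM (SD, n = 3), a log2 difference of -2.27 (SE 1.08, edgeR adjusted p = 1) that was just short of a DEG. It was a DEG with DESeq2 (-2.24), without the rRNA gene (-2.27) and in a fit of both groups alone (-2.25), with adjusted p values from 0.782 to 1. In these settings 592 of 21009, 579 of 20717 and 416 of 16711 genes were DEGs. Mcl1 was the 1 member whose groups did not overlap, against 7.42% of all genes (exact permutation test, p = 0.1, the smallest possible). Its value was -2.07 (SE 0.99) when the kind of library was allowed for and -2.03 (SE 1.23) with the replicate number as a block. Both were short of a DEG, and the permutation test did not use the pairing by number. Pmaip1 came next, with 28 counts in 1 IVG day 6 library against 0 in IVG. In all, 0 of 9 members were DEGs, against 2.9% of all genes. The other fitted values ran from -0.18 for Bcl2l10 to 4.99 for Bcl2, and the median was 0.69 over the members and 0.05 over all genes.

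In the cultures with neurotrophin-4, Mcl1 was 16.4 ± 18.6 normalised CPM on day 6 and 4.69 ± 2.20 on day 10, a log2 difference of -1.81 (SE 1.07, edgeR adjusted p = 0.479). Scaled by DESeq2's size factors it was -2.38 and a DEG, as it was in DESeq2's own test (-2.37) and without IVG-NT day 6 replicate 1 (-2.22) or 3 (-2.25). The adjusted p values of these 4 calls ran from 0.0979 to 0.459. Of 21009 genes, 2707 were DEGs with size factors and 2739 in DESeq2's test. The numbers were 2395 of 23029 genes without replicate 1 and 7211 of 23447 without replicate 3. Without replicate 2 the Mcl1 difference was -0.34. The size of this difference thus depended on 1 shallow library. Bcl2 came nearest to the limit (20 counts on day 6 against 0 on day 10, edgeR adjusted p = 0.428). None of the 9 members was a DEG, against 12.7% of all genes, and 1, Bak1 (38 counts against 4, 3.30, SE 2.13, exact permutation test p = 0.1), separated the groups, against 11% of all genes. Bak1 was at 0 in both shallow libraries, where 3 counts stand for 0.504 and 0.421 CPM. In IVG-NT it was at 0.172, 0.413 and 0.442 CPM, so depth leaves this separation undecided. The overlap with Ggnbp1 also makes the Bak1 counts uncertain. The median was 0.03 over the members and 0.40 over all genes with TMM, a shift that was 0.04 with size factors. The Mcl1 differences between days with and without neurotrophin-4 differed by 0.46 with TMM (SE 1.46, edgeR interaction test, adjusted p = 1) and by -0.14 with size factors, so a difference in this drop between the cultures was not shown.

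A term for the kind of library moved few member calls. With it, Pmaip1 stayed the 1 member DEG in IVG against IVV (3.83% of all genes), and Pmaip1 and Bcl2 were the 2 in IVG-NT against IVG (2.03%). Bcl2, through its 14 counts in IVG replicate 2, was the 1 in IVG against IVG day 6 (4.86%). No member was a DEG in IVG-NT against IVV (4.31%), between the day 6 groups (15.8%) or in IVG-NT against IVG-NT day 6 (16.9%).

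**Figure D4:**
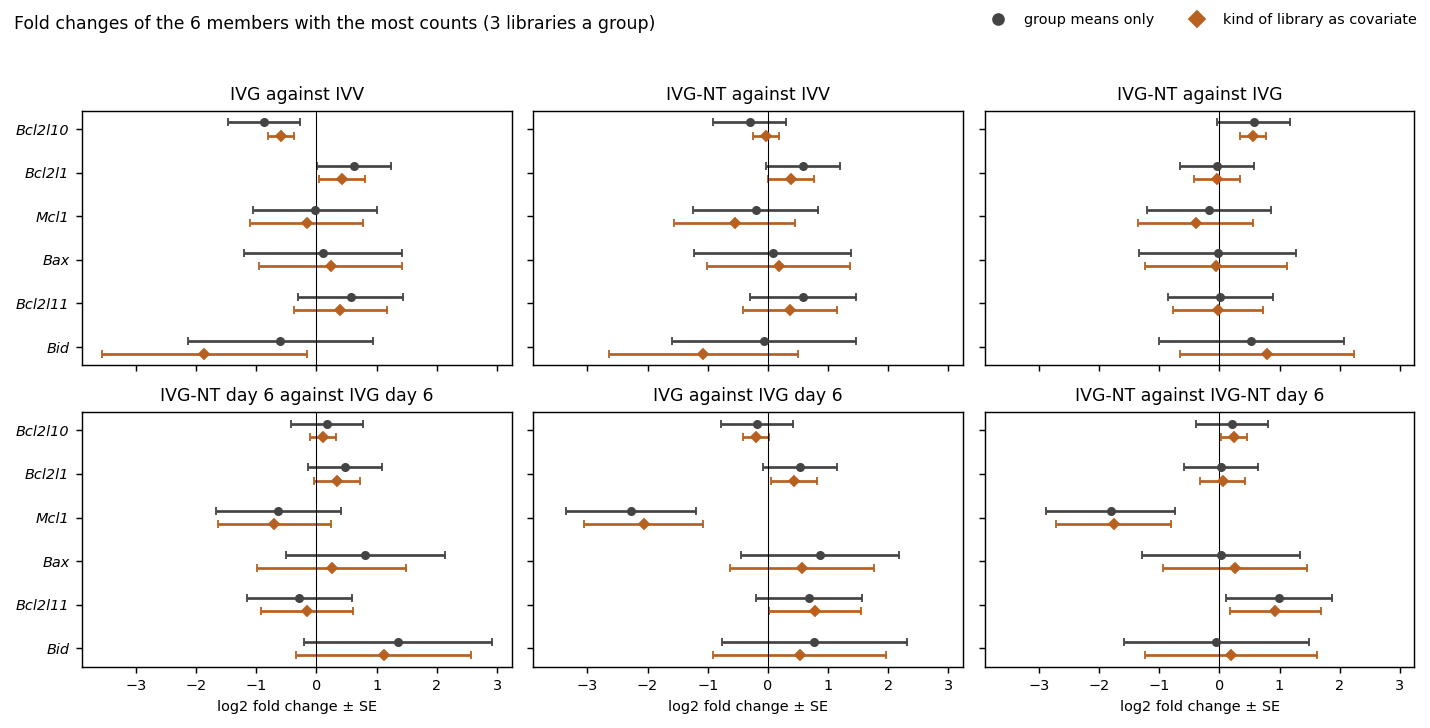
Log2 fold changes ± SE of the 6 members with the most counts in the 6 comparisons, fitted on group means alone (circles) or with a term for the kind of library (diamonds). Mcl1 lies at -2.27 and -1.81 in the comparisons of day 10 with day 6, and the Bcl2l10 bars shorten from an SE of about 0.60 to about 0.21 once the kind is allowed for.

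Whether neurotrophin-4 acted differently on day 10 and day 6 was asked with an interaction term. Of the 9 members 1 was a DEG for it, against 6.37% of all genes. This was Bcl2 (edgeR adjusted p = 0.664), and its fitted value rests on 14 counts in IVG replicate 2 and 20 counts in IVG-NT day 6 replicate 3, with 0 counts in the other 10 in vitro libraries. Pmaip1 was next (edgeR adjusted p = 0.812), and the other 7 ran from -0.84 for Bax to 1.43 for Bak1. In none of the 6 comparisons between groups did any of the 21009 genes reach an adjusted p under 0.05 by edgeR's test, while 261 to 2661 passed 0.05 before adjustment and DESeq2 gave 51 to 715 genes with an adjusted p under 0.05. The counts in both comparisons with IVG-NT day 6 depended on its replicate 3, without which 2411 and 2549 genes had an adjusted p under 0.05 by edgeR and 6817 and 7211 of 23447 genes were DEGs. Without the filter on low counts 881 and 941 genes passed adjustment there.

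The genes around the members were read from fixed lists. Of 13 further BCL2 family genes 8 could be tested. Hrk, a BH3-only gene, was a DEG in IVG-NT against IVV (0 against 43 counts, at least 13.4-fold lower), where 1 of the 8 was called against 3.29% of all genes, and against IVG (1 of 8 against 1.24%, 0 against 40 counts, at least 10.4-fold lower). It was also the DEG of that list for the interaction (6.37% of all genes, edgeR adjusted p = 0.699), with 9 counts in IVG-NT day 6 and 4 in IVG day 6. Of 15 genes of the caspase pathway, 1 was a DEG in each comparison that involved IVG-NT day 6, a share below the 11.6% and 12.7% of all genes. Xiap, a caspase inhibitor, was lower in IVG-NT day 6 than in IVG day 6 (-2.69, SE 1.21, edgeR adjusted p = 0.414), and its values there were 4.34, 13.7 and 7.32 against 82.9, 73.7 and 6.94 normalised CPM. Birc3, another member of the inhibitor of apoptosis family, was higher in IVG-NT (458, 457 and 223) than in IVG-NT day 6 (94.9, 152 and 210), by 1.31 (SE 0.59, edgeR adjusted p = 0.379). Of 12 upstream regulators, among them Trp53, Trp63 and Chek2, 0 were DEGs in any of the 6 comparisons (1.24% to 12.7% of all genes). Both Hrk differences between groups had an adjusted p of 1.

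Between the kinds of library, where 35.1% of all genes were DEGs, 6 of the 12 upstream regulators, 6 of the 15 caspase pathway genes and 2 of the 8 family genes were. Of the 12 upstream regulators 4 were higher and 2 lower in rRNA-rich libraries, with Foxo3 (2.89, SE 0.25), Huwe1 (2.77), an MCL1 ubiquitin ligase, and Usp9x (2.73), an MCL1 deubiquitinase, with edgeR adjusted p values from 4.1e-06 to 1.1e-05. Trp63 (1.79) was the fourth, with an adjusted p of 0.129, while Vdac2 (-1.85) and Vdac3 (-2.27), channels of the outer mitochondrial membrane, were lower. In the caspase pathway Casp9 (3.50) and Xiap (2.34) were higher, and Cycs (-3.43), which encodes the cytochrome c that leaves the mitochondria, Endog (-6.40), Casp8 (-3.68) and Aifm1 (-1.03) were lower. Of these 6 genes, 4 had an edgeR adjusted p under 0.05. In the family, Bcl2l13 (1.99) was higher and Bik (-1.77) lower. The members' median between the kinds was -0.80 and that of all genes -0.54.

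Over the 15 libraries, the genes whose log2 CPM ran most like that of Bcl2l10 were Pnmt (Pearson r = 0.96), C1qtnf4 (r = 0.95) and Dynll2 (r = 0.95). Those most like Mcl1 were Gm48442 (r = 0.88), Fzd5 (r = 0.86) and Cdc5l (r = 0.85). These correlations are descriptions across libraries that share the kinds and depths given above. Dynll2, for example, was at 192 to 549 normalised CPM in the 6 rRNA-poor libraries and 43.2 to 100 in the 9 others, and Cdc5l at 84.4 and 105 in the rRNA-rich libraries of IVG day 6 and at most 37.9 in all other libraries.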

How the data were processed

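Poly(A) cDNA of 6 oocytes a library was sequenced in pairs. The authors aligned reads to mm10 with HISAT2 and deposited whole-number counts per Ensembl gene without normalization; how reads were assigned to genes is not given in the sources used here. Symbols, exon lengths and sequences come from GENCODE vM21 (GRCm38). Titles gave the groups and the replicate numbers, which run from 2 to 4 in IVV. Genes passing filterByExpr (minimum count 10) were scaled by TMM and tested in edgeR 4.0.16 (R 4.3.3) by quasi-likelihood F tests on a single model holding the means of the 5 groups, with Benjamini-Hochberg adjustment over the 21009 genes tested. Figures were drawn with matplotlib, and DESeq2 1.42.0 was an alternative. Exact permutation tests (two-sided, of log2(CPM + 1)) also compared single members. FPKM is CPM per kilobase of merged exons, with the library total as denominator.

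The members, gene lists, tests and the rRNA limit of 5% were chosen with earlier results of these data known. All 10 members were described, and in each comparison the statistics of every member DEG, or else of the 2 nearest to the limit, were given, with other members named where a value stood out. The fit was tested on simulated counts before use. These held no set difference between the kinds of library, so that test does not cover it. Libraries of a group come from separate experiments per the study's methods. Same-numbered libraries deviated together (r over all genes from 0.37 to 0.73 between IVG-NT and IVG and from 0.15 to 0.54 between IVG and IVG day 6). Replicate 3 is also the rRNA-poor library of each of these groups. The number was therefore fitted as a block in an alternative. Unless a block is named, the tests given, the permutation tests among them, did not use this pairing.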

Additional observations from a re-analysis of the deposited data

Results flagged for a closer look

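Bcl2 was set apart because its neurotrophin-4 difference changed between day 10 and day 6 in a test of that change, the interaction term. The fitted log2 value was -10.24 (SE 3.75, edgeR adjusted p = 0.664), past the limits of a DEG. On day 10 there were 14 counts in 1 of 3 IVG libraries and 0 in IVG-NT. On day 6 there were 0 in IVG day 6 and 20 counts in 1 of 3 IVG-NT day 6 libraries. Without IVG replicate 2 the value was -5.20 and without IVG-NT day 6 replicate 3 it was -4.92, neither of them a DEG, and DESeq2 gave -8.90, also short of a DEG. With group totals at 0 the fitted size depends on the prior count and is no measure of a fold.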

How the results depend on the processing

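The number of member DEGs moved between 0 and 2 under every alternative. With DESeq2's size factors it was 1 in IVG-NT against IVG-NT day 6 (Mcl1), where 2707 of 21009 genes were DEGs. Without the rRNA gene it was 1 in IVG against IVG day 6 (Mcl1), where 579 of 20717 genes were. A covariate for the kind of library gave 2 in IVG-NT against IVG (Pmaip1 and Bcl2, against 2.03% of all genes). It gave 1 in IVG against IVG day 6 (Bcl2, against 4.86%). With only the compared groups in the fit it was 0 in IVG-NT against IVG, where 66 of 16727 genes were DEGs. It was 1 in IVG against IVG day 6 (Mcl1, against 416 of 16711 genes). For the interaction of neurotrophin-4 with day it was 0 (935 of 19272 genes). In the first Pmaip1 and in the last Bcl2 failed the filter on low counts. In rRNA-rich libraries only, it was 0 in IVG-NT against IVG (28 of 25589 genes) and 0 for the interaction (3021 of 25589 genes). There the fitted Pmaip1 value in IVG against IVV, with 1 IVV library, was -9.64. DESeq2's Wald test gave 1 in each comparison of day 10 with day 6 (Mcl1), against 592 genes without and 2739 with neurotrophin-4, of 21009. It gave 0 for the interaction (1227 genes) and 2 between kinds of library (Bcl2l10 and Bax), where 9057 of 21009 genes were DEGs. Without both shallow libraries, an alternative chosen after seeing the data, IVG-NT day 6 is 1 library, so no number of DEGs is given for it. The cause of these moves was not tested. Left out singly, libraries gave 1 to 2 in IVG against IVV, with 2 without IVG replicate 3, where 1065 of 23374 genes were DEGs. They gave 0 in IVG-NT against IVV, where 235 to 1122 genes were DEGs. In the other comparisons and the interaction they gave 0 to 1, where 126 to 7211 genes were DEGs. These fits tested 22627 to 23615 genes. For IVG against IVG day 6 the 1 was Pmaip1, without IVG day 6 replicate 1 (469 of 23453 genes) or 2 (348 of 23478 genes).

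Fold changes of the member DEGs, or of the members nearest to the limit, reversed under no alternative that gave a value. Where such a member had no counts left or failed the filter on low counts there was none. Of these values, 181 stayed on the same side of the threshold, 12 passed it and 9 no longer did. With the replicate number as a block, the interaction had 0 member DEGs, since Bcl2 gave no value there, and the pairing changed no other member call. Between same-numbered libraries of IVG-NT day 6 and IVG day 6, r over all genes was 0.083 to 0.328. Between IVG-NT and IVG-NT day 6 it was 0.066 to 0.260, and in both comparisons with IVV -0.522 to -0.278. No limit on r was set, and the check did not show that equal numbers pair libraries in these comparisons. On CPM without TMM factors, 1 member separated IVG-NT from IVV (1 also with a prior count of 2), 1 IVG-NT from IVG, 2 IVG from IVG day 6 and 3 IVG-NT from IVG-NT day 6. The shares of all genes given above are for TMM-normalised CPM, so these counts have no share of all genes beside them and nothing is read from them. Size factors in place of TMM moved the median of all genes from -0.20 to -0.39 in IVG against IVV, from -0.27 to 0.00 between the day 6 groups and from 0.40 to 0.04 in IVG-NT against IVG-NT day 6. That change of scaling turned the sign of fitted values that were no DEGs, such as Bax and Bak1 in IVG against IVV (to -0.04 and -0.09), Bcl2l11 between the day 6 groups (from -0.28 to 0.18), Bcl2l1 (0.02 to -0.54), Bcl2l10 (0.21 to -0.11) and Bax (0.03 to -0.23) in IVG-NT against IVG-NT day 6, and Mcl1 in the interaction (0.46 to -0.14). Depth limits Bcl2, Bak1, Pmaip1 and Bbc3, for which a count of 0 in a library of 5.95 M counts allows up to 0.504 CPM.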
